A study of Mus musculus with 7 samples.

Results

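Transcription factors of the ETS family around ERM, the product of Etv5, were followed across the RNA arrays of a study of mice that lack ERM. The 10 genes were Etv1, Etv4 and Etv5 (the PEA3 group), Etv6, Ets1, Ets2, Elk3, Gabpa, Elf1 and Ehf. A probe set counted as a member when its annotation named exactly 1 of these genes. That rule gave 26 of the 34945 probe sets with 1 gene name, for 9 of 18193 genes, on the array design used for Sertoli and TM4 cells. It gave 11 of 10833, for 7 of 8251 genes, on the design used for whole testis. Etv1 had no member probe set, because its 3 probe sets on the first design and its 1 on the second also name a further gene. Etv5 and Etv6 had none on the testis design.

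ETS factors bind DNA through a conserved domain that recognises a core of GGAA. The PEA3 group acts downstream of receptor tyrosine kinases such as the FGF and GDNF receptors, and in the testis Etv5 is known for its role in the upkeep of spermatogonial stem cells. It is made both by Sertoli cells, the somatic nurse cells of the seminiferous tubule, and by germ cells.

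The 7 arrays were 1 each of whole testis from ERM knockout and from wild-type mice at 4 weeks, primary Sertoli cells from ERM knockout mice at 10 weeks and at 4 weeks and from wild-type mice at 4 weeks, and the TM4 cell line with and without transfection of ERM. TM4 is an immortal line that was set up from Sertoli cells of the mouse testis. The sources used here do not give the deleted part of Etv5, the strain, the isolation of the Sertoli cells or the construct put into TM4 cells. With 1 array a group, no difference had a replicate check, no test across samples was possible, and this number of arrays sets how precise the values are. Intensities below are scaled so that each array has a trimmed mean of 500, and values under a floor of 100 were treated as below detection. The share of probe sets that reached that floor ranged from 72.0% to 82.2% over the 7 arrays.

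Marker genes were read by their brightest probe set. All 12 Sertoli cell markers, among them Sox9, Wt1 and Amh, reached the floor on the 3 Sertoli arrays. On the TM4 arrays 10 of 12 did. Wt1 was below the floor on both TM4 arrays and Fshr with ERM. Sox9 was below it without ERM on 1433889_at, at 95.1, but read 2869 and 1072 there on its other probe sets. The summed Sertoli marker intensity was 49257, 52185 and 44820 in the 10-week knockout, 4-week knockout and wild-type Sertoli cells, against 3289 and 3440 in TM4 cells with and without ERM. Clu gave the largest part of the Sertoli sums, at 16613, 17012 and 16016, against 378 and 410 in TM4 cells. Amh went the other way, at 323, 381 and 322, against 573 and 651. Between wild-type Sertoli and untransfected TM4 cells, 10 of the 12 were at least 2-fold higher in Sertoli cells and 1 was lower. The 4-week knockout Sertoli array stood apart in its control for 18S ribosomal RNA, whose middle probe set read 3037, against 347 at 10 weeks and 297 in wild type. The only error available was the spread among probe sets of the same gene that read at least 500 on both arrays of a pair. As a standard deviation of log2 ratios it was 0.20 for the 4-week Sertoli pair, 0.18 for the 10-week knockout against wild type, 0.25 between the knockout ages, 0.15 for TM4, 0.25 for testis and 0.46 for wild-type Sertoli against TM4 cells. It does not cover differences between animals or cultures, or probe sets that read below 500.

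Upstream sequences of the members were taken from RefSeq on build GRCm38.p6, as the 250 bases before an annotated start. Of the 10 genes, 7 had an entry, with 10 starts in all, and Etv4, Ets1 and Ehf had none. The windows printed are those of Etv5, the gene removed or added in the study, of Elk3, which differed most between Sertoli and TM4 cells, and of Gabpa, the 1 member whose window held the longer ETS motif CCGGAAG. They run 5′ to 3′ on the strand of the gene, and capitals mark GGAA or its reverse complement TTCC.
Etv5, outer start, chr16:22439571-22439820 (- strand): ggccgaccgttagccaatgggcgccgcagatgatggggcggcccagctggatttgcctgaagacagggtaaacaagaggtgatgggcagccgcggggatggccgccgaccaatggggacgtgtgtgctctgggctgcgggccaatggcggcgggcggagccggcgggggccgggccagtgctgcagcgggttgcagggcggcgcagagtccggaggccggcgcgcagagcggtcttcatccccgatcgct
Etv5, inner start, chr16:22438369-22438618 (- strand): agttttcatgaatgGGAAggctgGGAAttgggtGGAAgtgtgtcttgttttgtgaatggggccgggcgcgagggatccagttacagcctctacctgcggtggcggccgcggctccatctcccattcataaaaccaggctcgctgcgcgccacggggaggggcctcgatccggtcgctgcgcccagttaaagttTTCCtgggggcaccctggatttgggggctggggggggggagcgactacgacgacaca
Elk3, chr10:93311160-93311409 (- strand): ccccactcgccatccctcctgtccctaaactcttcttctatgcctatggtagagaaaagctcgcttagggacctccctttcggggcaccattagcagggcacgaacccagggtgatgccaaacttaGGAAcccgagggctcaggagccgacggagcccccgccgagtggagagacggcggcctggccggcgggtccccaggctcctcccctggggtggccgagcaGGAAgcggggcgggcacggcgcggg
Gabpa, chr16:84834874-84835123 (+ strand): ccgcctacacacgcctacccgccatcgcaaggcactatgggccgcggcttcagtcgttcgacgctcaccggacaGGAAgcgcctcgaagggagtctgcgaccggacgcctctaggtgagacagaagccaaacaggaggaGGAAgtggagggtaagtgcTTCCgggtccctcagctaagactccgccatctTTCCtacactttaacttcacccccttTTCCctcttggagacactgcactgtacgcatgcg
The outer window of Etv5 held no GGAA on either strand and the inner window held 4. The Elk3 window held 2 and that of Gabpa 5. GGAA on either strand was present in 93.4% of 32851 RefSeq windows of this length, so its presence is common. CCGGAAG on either strand, which always overlaps a GGAA, was in 6.91% of the windows. A match of letters does not show that a factor binds there.

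Ets1, a factor best known from lymphocytes and endothelial cells, showed the widest spread of any member among the Sertoli preparations. It was highest in knockout cells at 10 weeks and lowest in knockout cells at 4 weeks on all 4 probe sets, with wild type between them. Probe set 1426725_s_at read 3460 in knockout cells at 10 weeks and 798 in knockout cells at 4 weeks, against 1642 in wild-type cells. Probe set 1452163_at, drawn from the same source sequence and so not a separate check, read 2694 and 807 in the same knockout preparations, against 1366 in wild type. The pair that targets another Ets1 sequence was dimmer. Of these, 1422027_a_at read 487 in knockout cells at 10 weeks and 179 in knockout cells at 4 weeks, against 224 in wild type, and 1422028_a_at read 381 and 196, against 210 in wild type. All 4 probe sets therefore gave the same order of arrays, by different amounts.

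**Figure D1:**
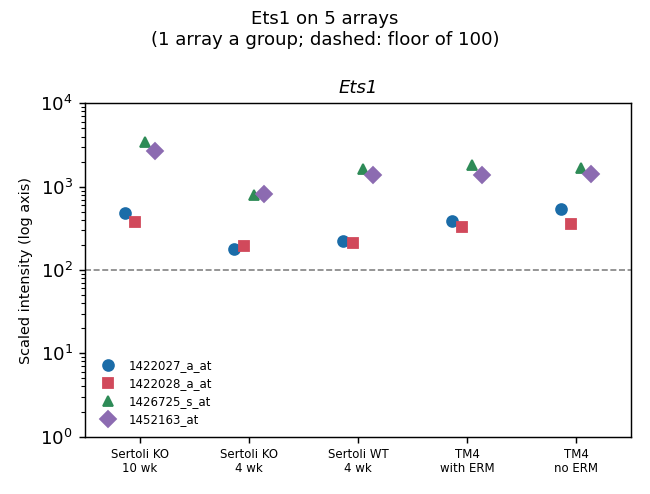
Scaled intensity (log axis) of the 4 Ets1 probe sets on 5 arrays, 1 array a group, with the floor of 100 dashed. In Sertoli cells each probe set is highest in the 10-week knockout and lowest in the 4-week knockout, at 3460 against 798 on 1426725_s_at, while in TM4 cells 1422027_a_at reads 384 with ERM against 543 without and the other 3 lie closer together.

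Between the knockout ages the ratio of 10 to 4 weeks was 4.34 for 1426725_s_at, 3.34 for 1452163_at, 2.72 for 1422027_a_at and 1.94 for 1422028_a_at. The log2 ratios, from 0.96 to 2.12, were all larger than the probe set spread of 0.25. That spread does not cover 1422027_a_at and 1422028_a_at, which read below 500. A ratio as high as that of 1426725_s_at was shown by 0.310% of all probe sets in this comparison, and one as high as that of 1422028_a_at by 4.46%. Ets1 supplied all 3 member probe sets that were at least 2-fold higher at 10 than at 4 weeks, of 20 with a ratio, where 4.00% of all probe sets were at least 2-fold higher. No member probe set was at least 2-fold lower, against 2.88% of all. In these comparisons between bulk preparations, fewer cells of a type and less RNA per cell cannot be told apart.

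The 4-week knockout preparation was below wild type for Ets1, at a log2 ratio of -1.04 on 1426725_s_at, -0.76 on 1452163_at, -0.32 on 1422027_a_at and -0.10 on 1422028_a_at. The last of these lay within the probe set spread of 0.20, which does not cover the dimmer 1422027_a_at and 1422028_a_at, both below 500. The 10-week knockout preparation was above the same wild-type array, at 1.08, 0.98, 1.12 and 0.86 in the same order of probe sets. This comparison, which leaves out the array with the high 18S signal, held 2 member probe sets at least 2-fold higher, both of Ets1, of 20 with a ratio, where 1.73% of all probe sets were. It held 0 that were at least 2-fold lower, where 3.53% were. Genotype and age differ together in it, and both knockout ages share the wild-type array, so the pair of differences is not independent.

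Markers of other cell types also differed between these preparations, and their part in the values of Ets1 and Elk3 was not tested. The 12 germ cell markers summed to 4328 in knockout cells at 10 weeks and 18185 in knockout cells at 4 weeks, against 20594 in wild type, with Sycp1 alone below the floor at 10 weeks. The 12 macrophage markers summed to 8978 and 5102 in the knockout preparations, against 13096 in wild type, and Itgam was below the floor on all 3 arrays. Ptprc was below it on all 3 by 1440165_at, whereas 1422124_a_at read 132 and 41.2 in the knockout preparations, against 196 in wild type. The 5 fibroblast markers summed to 10395 and 6109, against 11126 in wild type, all above the floor. Most of each sum came from Dcn, at 6122 and 3027, against 6207 in wild type, and Pdgfra, at 2972 and 1567, against 2740. Col1a1 went the other way in the 4-week knockout, at 455 against 349 in wild type. Among endothelial markers, of which 5, 5 and 4 of 8 reached the floor, the sum was 1524 in the knockout at 10 weeks and 1185 in the knockout at 4 weeks, against 1058 in wild type. Pecam1, Tek and Vwf were below the floor on all 3 arrays. The 6 lymphocyte markers with a probe set summed to 1089 and 968, against 1210 in wild type, and 6, 5 and 4 of them reached the floor. The Leydig cell markers, all 4 with a probe set above the floor, summed to 5541 and 3319 in the knockout preparations, against 2159 in wild type. The 5 peritubular markers summed to 11098 and 8271, against 6678 in wild type. Most of each sum came from Acta2 on 1416454_s_at, at 10026 and 7409, against 5799 in wild type. Of the others, Myh11 and Des were higher in both knockout preparations than in wild type, and Cnn1 and Tagln were lower. Tagln read 135 at 10 weeks and 75.7, below the floor, at 4 weeks, against 141 in wild type.

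Transfection of ERM into TM4 cells did not come with a like difference in Ets1. Its brightest probe set read 1828 with ERM and 1679 without, and 1452163_at read 1386 with ERM and 1413 without. The 1422027_a_at probe set was lower with ERM, at 384 against 543, a log2 ratio of -0.50, while 1422028_a_at stood at 324 against 361. The 2 Ets1 probe sets of the testis design were below the floor on both testis arrays, at 28.5 and 54.5 in the knockout and 31.1 and 52.4 in wild type.

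Etv5 itself was detected by all 3 of its probe sets on every Sertoli and TM4 array. Probe set 1428142_at read 995 in knockout cells at 10 weeks and 910 in knockout cells at 4 weeks, against 710 in wild type, and 473 in TM4 cells with ERM against 405 without. Probe set 1420998_at read 345 and 295 in the knockout preparations, against 281 in wild type, and 211 with ERM against 187 without. Its partner 1450082_s_at, annotated to the same source sequence, read 390 and 282, against 250 in wild type, and 475 with ERM against 314 without.

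The order of the Sertoli arrays was therefore the same on each Etv5 probe set, with the 10-week knockout highest and wild type lowest. Against wild type at 4 weeks the knockout log2 ratios were 0.36, 0.07 and 0.17 for 1428142_at, 1420998_at and 1450082_s_at, and only the first exceeded the probe set spread of 0.20. Signal on the arrays labelled knockout does not settle those labels, since a probe set outside the deleted part would still detect the transcript. In TM4 cells the log2 ratios of 0.22, 0.17 and 0.60 with over without ERM were larger than the pair's spread of 0.15. Neither spread covers probe sets that read below 500. All Etv5 probe sets did so in TM4 cells, as did 1420998_at and 1450082_s_at in Sertoli cells. The ratio of 1450082_s_at was reached by 2.09% of all probe sets, that of 1428142_at by 17.8% and that of 1420998_at by 23.1%.

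**Figure D2:**
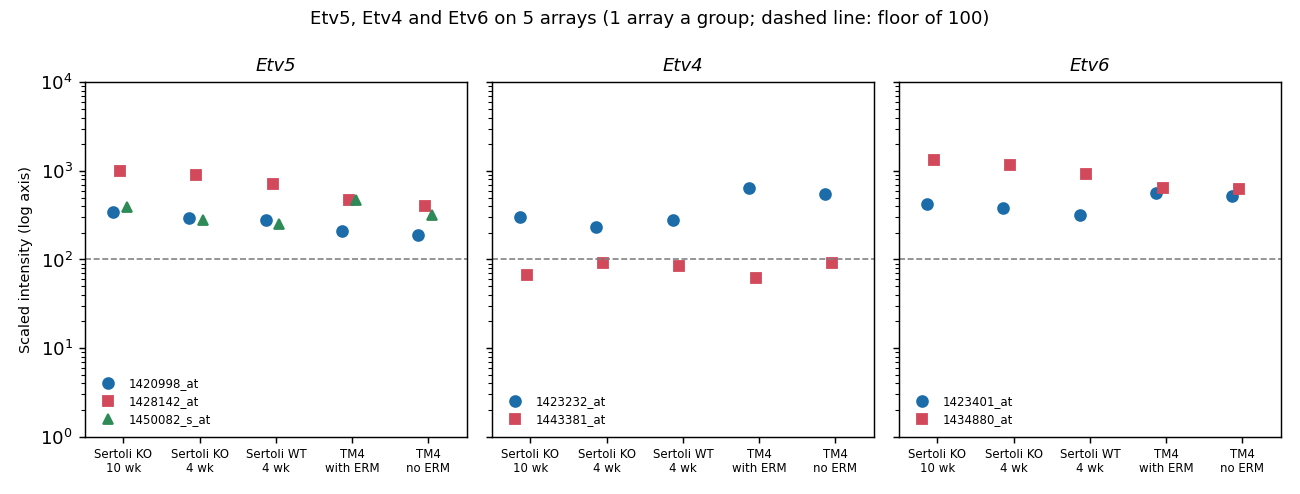
Scaled intensity (log axis) of the probe sets of Etv5, Etv4 and Etv6 on 5 arrays, 1 array a group, with the floor of 100 dashed. The Etv5 probe set 1428142_at and the Etv6 probe set 1434880_at are highest in the 10-week knockout at 995 and 1332, while the detected Etv4 probe set is highest in TM4 cells.

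Etv4, the PEA3 protein that gave the group its name, was read by 1423232_at at 304 in knockout Sertoli cells at 10 weeks and 234 in knockout cells at 4 weeks, against 280 in wild type. It read 635 in TM4 cells with ERM and 542 without. Its level was thus 1.93-fold lower in wild-type Sertoli than in untransfected TM4 cells, just within 2-fold. The other probe set, 1443381_at, was below the floor on all 5 arrays. Etv6, an ETS repressor also known as Tel, followed the order of Etv5 in Sertoli cells. Its probe set 1434880_at read 1332 and 1159 in knockout cells at 10 and 4 weeks, against 917 in wild type, and 641 in TM4 cells with ERM against 626 without. On 1423401_at the values were 423 and 383, against 315 in wild type, and 557 with ERM against 520 without. The 4-week knockout log2 ratios of 0.34 and 0.28 were above the probe set spread and within 2-fold. That spread does not cover 1423401_at, which read below 500 on these arrays. As scaled, the Etv6 probe sets placed TM4 cells differently, below the Sertoli cells on 1434880_at and above them on 1423401_at. The latter order depends on the scale. As deposited, 1423401_at read 248 and 221 in knockout Sertoli cells at 10 and 4 weeks and 188 in wild type. In TM4 cells it then read 207 with ERM and 191 without.

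Genes with a pattern most like Etv5 over the 5 arrays were sought among 7463 genes that read at least 300 on every array. Likeness was the mean absolute difference of log2 intensity after each gene was centred on its own mean. The 4 closest to 1428142_at were Hgsnat (0.047), Sft2d2 (0.059), Mcfd2 (0.063) and Nudt19 (0.063), and 39 genes lay within 0.1. For Ets1, 2 genes lay within 0.1, Dse (0.052) and Fnbp1l (0.097). Dse read 1470 and 373 in the knockout at 10 and 4 weeks, against 754 in wild type, and 899 in TM4 with ERM against 789 without. The closest to Elk3 was Selenoh at 0.29, followed by Ccnd1 at 0.30, so no gene came within 0.1 of it. Ehf was not compared, since its brightest probe set spans under 2-fold over the 5 arrays. The 2 nearest genes were Cmtm4 and Pdlim7 for Etv4, Tmem135 and Prkab1 for Etv6, Rcsd1 and Tent4a for Ets2, Slc45a1 and Hmgcs1 for Gabpa, and Cox15 and Kctd9 for Elf1. Patterns over 5 arrays of 5 groups are a description of these arrays.

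Elk3, also called Net, a ternary complex factor that works with serum response factor, differed most between the cell sources. Its brightest probe set, 1448797_at, read 197 in knockout Sertoli cells at 10 weeks and 77.9 in knockout cells at 4 weeks, against 253 in wild type. In TM4 cells it read 3008 with ERM and 2648 without. Elk3 was thus 10.5-fold lower in wild-type Sertoli than in untransfected TM4 cells on 1448797_at, a difference reached by 0.742% of all probe sets. It was at least 3.84-fold lower on 1417662_at, which was below the floor on the 3 Sertoli arrays, and 2.09-fold lower on 1435143_at. The last probe set, 1445886_at, reached the floor only in TM4 cells with ERM, at 102.

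Within the Sertoli preparations, Elk3 on 1448797_at was at least 2.53-fold lower in the 4-week knockout than in wild type, since the knockout value lay under the floor. It was 1.29-fold lower in the 10-week knockout than in wild type. The probe set 1435143_at did not follow, at 208 and 224 in the knockout preparations at 10 and 4 weeks, against 213 in wild type. Elk3 on 1448797_at and Ets1 on 1426725_s_at were the 2 member probe sets at least 2-fold lower in the 4-week knockout, of 20 with a ratio, where 2.80% of all probe sets were. The count of members at least 2-fold higher was 0, where 0.620% of all probe sets were. The median log2 ratio over the members with a ratio was 0.10, against -0.01 over all probe sets.

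**Figure D3:**
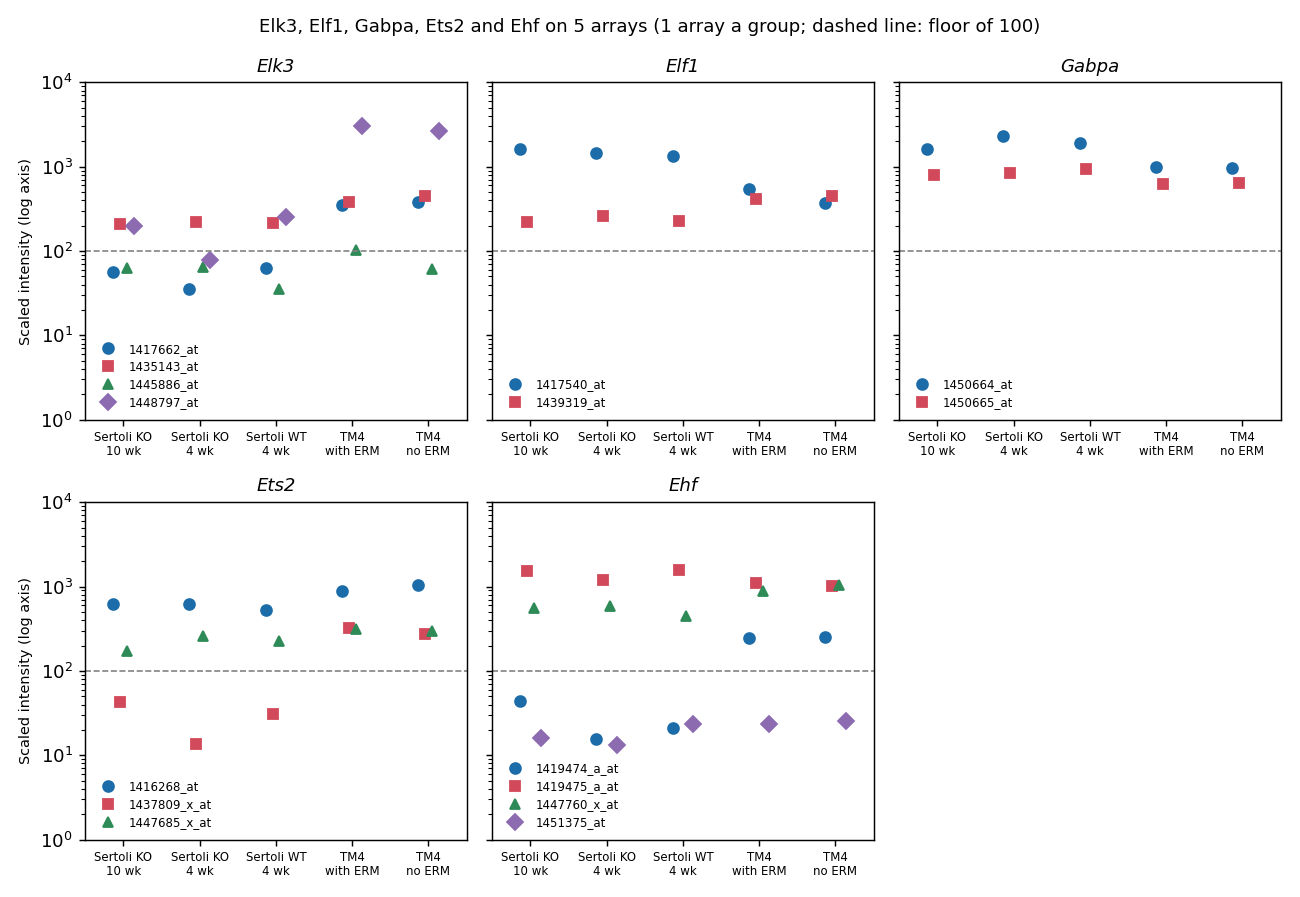
Scaled intensity (log axis) of the probe sets of Elk3, Elf1, Gabpa, Ets2 and Ehf on 5 arrays, 1 array a group, with the floor of 100 dashed. Elk3 stands out on 1448797_at, at 3008 and 2648 in TM4 cells against 77.9 to 253 in Sertoli cells, and the probe sets of Elf1 and of Ehf place the cell sources in opposite order.

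Elf1, an ETS factor of the E74-like subgroup, gave opposite answers on its probe sets. On 1417540_at it read 1634 and 1442 in knockout Sertoli cells at 10 and 4 weeks, against 1322 in wild type, and 537 in TM4 cells with ERM against 369 without. On 1439319_at it read 224 and 263, against 225 in wild type, and 416 with ERM against 449 without. Wild-type Sertoli cells were thus 3.59-fold higher than untransfected TM4 cells on the first and 1.998-fold lower on the other, so the direction for the gene depends on the probe set. In TM4 cells the log2 ratio with over without ERM was 0.54 on 1417540_at, reached by 2.82% of all probe sets, and -0.11 on 1439319_at.

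Gabpa, the DNA-binding subunit of GA-binding protein and a regulator of mitochondrial genes, had 2 probe sets drawn from the same transcript. The first, 1450664_at, read 1600 and 2299 in knockout Sertoli cells at 10 and 4 weeks, against 1926 in wild type, and 987 in TM4 cells with ERM against 965 without. The second, 1450665_at, read 805 and 852, against 926 in wild type, and 622 with ERM against 640 without. Both were higher in wild-type Sertoli than in untransfected TM4 cells, by 1.996-fold and 1.45-fold, and neither passed 2-fold in any comparison as scaled. This depends on the scale. As deposited, they read 1150 and 553 in wild-type Sertoli cells, against 354 and 235 in untransfected TM4 cells, both more than 2-fold apart.

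Ets2, which is activated by Ras and MAP kinase signalling, read 615 and 621 on 1416268_at in knockout Sertoli cells at 10 and 4 weeks, against 524 in wild type, and 881 in TM4 cells with ERM against 1058 without. It was 2.02-fold lower in wild-type Sertoli than in untransfected TM4 cells on that probe set and at least 2.77-fold lower on 1437809_x_at, which may hybridise with other transcripts. On 1447685_x_at, of the same kind, it was 1.32-fold lower. Ehf, an ETS factor of epithelia, was read at 1521 and 1203 on 1419475_a_at in the knockout preparations, against 1552 in wild type, and at 1103 and 1010 in TM4 cells with and without ERM. The 1451375_at probe set for the same gene was below the floor on all 5 arrays, at 25.3 or less. Between wild-type Sertoli and untransfected TM4 cells Ehf was 1.54-fold higher on 1419475_a_at, at least 2.54-fold lower on 1419474_a_at and 2.33-fold lower on 1447760_x_at. Of the 8 epithelial markers, 6 reached the floor in wild-type Sertoli and 6 in untransfected TM4 cells, with sums of 2657 and 2073.

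Markers of other cell types also differed between wild-type Sertoli and untransfected TM4 cells, and their part in the member values was not tested. Germ cell markers summed to 20594 against 4304, with 8 at least 2-fold higher in Sertoli cells and 1 lower. Macrophage markers summed to 13096 against 4006, with 8 higher and 2 lower. Fibroblast markers summed to 11126 against 24980, with 2 higher and 3 lower. Over all members, wild-type Sertoli and untransfected TM4 cells were at least 2-fold apart on 9 of 23 probe sets with a ratio. Of these, 1 was higher in Sertoli cells, where 16.8% of all probe sets were, and 8 were lower, where 15.2% were. The 8 lower probe sets belonged to Elk3 (3), Ets2 (2), Ehf (2) and Ets1 (1), and the higher one to Elf1. This split depends on the scale of the arrays, since the deposited TM4 values were lower overall. With the values as deposited it was 7 higher and 3 lower, where 32.7% of all probe sets were higher and 7.19% lower. With log2 ratios centred on their median it was 2 higher and 8 lower, where 18.0% and 13.9% of all were. Over all probe sets the deposited scale moved the median log2 ratio to 0.57, against -0.07 as scaled. Member ratios slightly below 0, as for Etv5 on 1450082_s_at at -0.33, therefore have no settled direction in this pair. The other Etv5 probe sets were higher in wild-type Sertoli cells on either scale. As scaled, the log2 ratio was 0.81 on 1428142_at and 0.59 on 1420998_at. As deposited, these read 424 and 168, against 149 and 68.7 in untransfected TM4 cells.

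**Figure D4:**
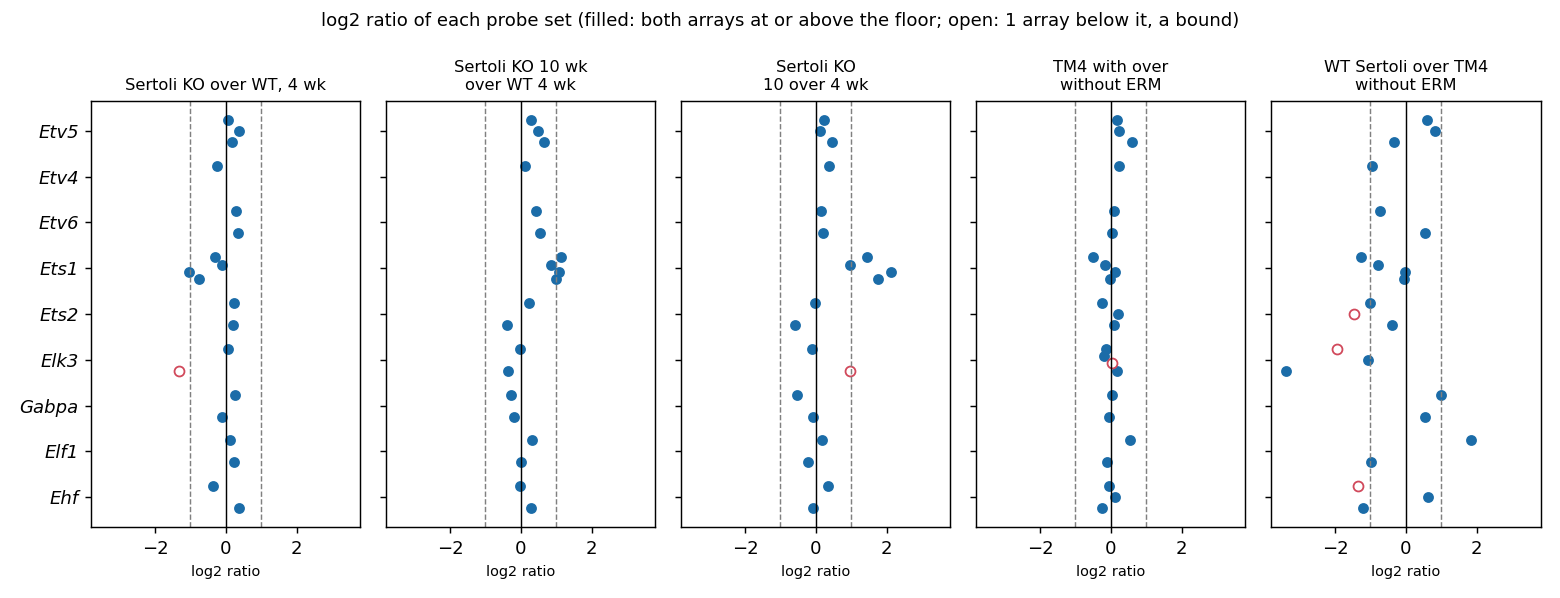
log2 ratio (x axis) of each member probe set with a ratio, by gene, in 5 comparisons of single arrays, with 2-fold dashed and bounds drawn open. The 4 Ets1 points lie above 0 between the knockout ages, at 0.96 to 2.12, while in TM4 cells all points lie between -0.50 and 0.60.

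Transfection of TM4 cells left all 24 member probe sets with a ratio within 2-fold. The count at least 2-fold higher was 0, where 0.281% of all probe sets were, and the count at least 2-fold lower was 0, where 0.466% were. The highest log2 ratio was 0.60, of Etv5 on 1450082_s_at, and the lowest -0.50, of Ets1 on 1422027_a_at.

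In whole testis at 4 weeks, 4 of the 11 member probe sets reached the floor on both arrays and 1, of Elf1, in the knockout alone. Ets2 (94246_at) read 209 in the knockout testis and 133 in wild type, a log2 ratio of 0.65 that 3.75% of all probe sets reached. This ratio exceeded the pair's probe set spread of 0.25, which came from probe sets that read at least 500. Etv4 read 1432 in the knockout and 1193 in wild type on 161842_r_at, and 273 and 265 on 92979_at. Gabpa (103440_at) read 226 in the knockout and 200.1 in wild type, and Elf1 (160721_at) 118 in the knockout and 68.2 in wild type, at least 1.18-fold higher. The 4 read on both arrays were thus higher in the knockout, with log2 ratios of 0.04 to 0.65, where 47.5% of all probe sets with a ratio were above 0. Etv4 on 92979_at, at 0.04, and Gabpa on 103440_at, at 0.17, lay within the spread of 0.25. Etv4 on 161842_r_at was close to it, at 0.26. The other 6 probe sets, of Ets1, Elk3, Gabpa, Elf1 and Ehf, were below the floor on both arrays. None of the 5 passed 2-fold: 0 were higher, where 0.602% of all probe sets were, and 0 lower, where 0.817% were. Cell type markers differed between these 2 arrays as well, and their part in the member values was not tested. Of 12 germ cell markers, 9 reached the floor in the knockout testis and 11 in wild type, with summed intensities of 30581 and 30650, most of it from Prm1 and Tnp1 of late spermatids. Several germ cell markers of earlier stages were lower in the knockout, with Dazl at 402 against 1364 in wild type and Sycp1 at 481 against 880. Stra8 was at least 2.86-fold lower. Kit read 293 in the knockout against 360 in wild type, whereas Zbtb16 was not lower, at 683 against 650. The 11 Sertoli markers with a probe set, all above the floor, summed to 15907 in the knockout and 12649 in wild type. The 5 fibroblast markers, all above it, summed to 5906 and 3603, and 2 of them, Pdgfra and Dcn, were at least 2-fold higher.

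**Figure D5:**
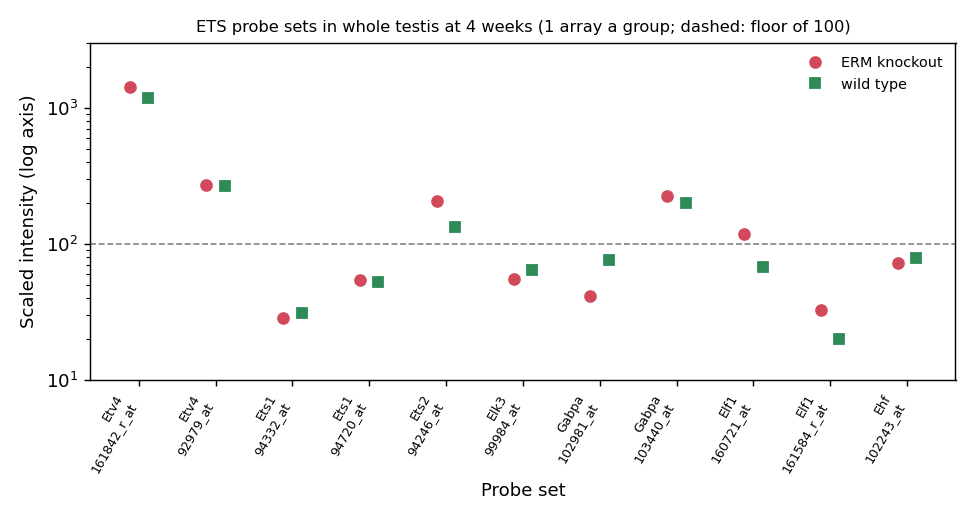
Scaled intensity (log axis) of the 11 member probe sets in whole testis at 4 weeks, 1 array each of ERM knockout (circles) and wild type (squares), with the floor of 100 dashed. The 4 probe sets that reach the floor on both arrays are higher in the knockout, from a log2 ratio of 0.04 for Etv4 on 92979_at to 0.65 for Ets2, at 209 against 133. Elf1 on 160721_at reaches the floor in the knockout alone.

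Of 17 further ETS family genes, 15 had a probe set on the Sertoli and TM4 design, and each was read by its brightest one. In the 4-week Sertoli pair 0 of 13 with a ratio were at least 2-fold apart, where 0.681% of all genes were higher and 3.18% lower. Between the knockout ages 1 of 13 was higher, where 4.19% of genes were, and 0 lower, where 3.51% were. That gene was Spib, a factor of B cells, which read 546 in knockout Sertoli cells at 10 weeks and 96.8 in knockout cells at 4 weeks, against 180 in wild type. It was at least 5.46-fold higher at 10 than at 4 weeks and 3.03-fold higher than in wild type, on its only probe set. Of the 6 lymphocyte markers, Cd3e read 238 in the knockout at 10 weeks and 134 at 4 weeks, against 283 in wild type. Cd3d read 124 and 89.2, against 177 in wild type. The B cell markers Cd79a and Cd79b read 116 and 118 in the knockout at 10 weeks and 112 and 124 at 4 weeks, against 86.5 and 117 in wild type. Cd3g and Cd2 were within 1.06-fold between the knockout ages. The part of these cells in the Spib values was not tested. In TM4 cells Erg, an endothelial ETS factor, was at least 3.84-fold lower with ERM on 1440244_at, at 23.0 against 384, whereas its other probe set stood at a log2 ratio of 0.34. The background for genes in TM4 cells was 0.303% higher and 0.421% lower. In the testis pair 0 of 10 were at least 2-fold apart, where 0.532% of genes were higher and 0.852% lower.

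Among 19 genes whose products act on PEA3 group factors, such as the repressor Cic, the ubiquitin ligase Cop1 and the kinases of the ERK pathway, 15 had a probe set on the same design. None of the 15 was at least 2-fold apart in the 4-week Sertoli pair, where 0.681% of all genes were higher and 3.18% lower. The count was also 0 in TM4 cells, where 0.303% of genes were higher and 0.421% lower. Between the 10-week knockout and wild type it was 0 too, where 1.62% were higher and 4.22% lower. Map2k2, the ERK kinase also known as MEK2, read 319 in knockout Sertoli cells at 10 weeks and 1080 in knockout cells at 4 weeks, against 553 in wild type. It was 3.39-fold lower at 10 than at 4 weeks on 1415974_at, and the other probe set gave -1.16 on the log2 scale. Map2k2 was the 1 gene of 15 past 2-fold between the knockout ages, where 4.19% of all genes were higher and 3.51% lower. Its order over the 3 arrays was the reverse of that of Ets1. Cic read 2093 and 2611 in the knockout preparations, against 2026 in wild type. Between wild-type Sertoli and untransfected TM4 cells, 5 of 15 were at least 2-fold higher in Sertoli cells, where 17.8% of all genes were. None was lower, where 16.1% were, and such a split depends on the scale of the arrays.

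Genes reported elsewhere to depend on Etv5 or the PEA3 group had 16 of 17 members on the design. In the 4-week Sertoli pair their median log2 ratio was -0.44, against -0.02 over all genes, and 2 of 15 with a ratio were at least 2-fold lower, where 3.18% of all genes were. These were Spry2, a feedback inhibitor of receptor kinase signalling (457 against 1069 in wild type), and Pou3f1 (688 against 1387), a POU factor for which the other probe set gave 0.16. Bcl6b, a partner of Etv5 in spermatogonial stem cells, was close to even at 1951 in the knockout and 1809 in wild type, and Lhx1 read 722 against 976, with 0.02 on the log2 scale by its other probe set. Between the knockout ages the list's median was 0.44, against -0.03 over all genes, and 2 of 16 were at least 2-fold higher, where 4.19% of all genes were. These were again Pou3f1, at 3266 in the knockout at 10 weeks and 688 at 4 weeks, and Spry2, at 986 and 457. Both comparisons use the 4-week knockout array, with its high 18S signal and its low macrophage and fibroblast marker sums, whose part was not tested. Against the 4-week wild-type array the 10-week knockout had a median of 0.01, against -0.03 over all genes. There Pou3f1 was 2.35-fold higher, the 1 gene of 16 past 2-fold, where 1.62% of genes were higher and 4.22% lower. In TM4 cells the median was 0.03, against 0.00 over all genes, with 1 of 14 at least 2-fold higher, where 0.303% of all genes were. That gene was Spry4 on 1445669_at, at 277 with ERM and 112, near the floor, without. Its log2 ratio was 1.31 there, and as low as 0.31 on another probe set. None was at least 2-fold lower, where 0.421% of genes were. In the testis pair the median was -0.01 over 12 genes, against -0.01 over all genes, and 0 were past 2-fold.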

How the data were processed

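RNA from 7 mouse samples was measured on single-colour Affymetrix arrays, each its own group. The probe set intensity values deposited by the authors are linear with a lowest value of 1. The sources used here do not name the software or normalization behind them. Each array was scaled to a mean of 500 over the non-control probe sets between its 2nd and 98th percentiles. Values below 100, which is 0.2 of that mean, were set to 100 before log2 ratios. A ratio with 1 array below 100 is a bound, and with both below it none was taken. Probe sets naming 1 gene were kept, 34945 and 10833 on the 2 designs. Counts were made at 2-fold, without a test. Gene lists were read by each gene's brightest probe set. The members and lists were chosen with earlier results of these data known. All members were named, with up to 6 list genes a comparison, by those past 2-fold with the brighter array at 300 or more and then by size of ratio, and the genes most alike over 5 arrays. The 7 alternatives were the deposited scale, centring, quantile normalization, floors of 0.1 and 0.4, dropping probe sets that may cross-hybridise, and 1 probe set a gene. The steps were tested on simulated data. Python 3.11.15, numpy 2.4.6, pandas 2.3.3 and matplotlib 3.10.9 were used.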

Additional observations from a re-analysis of the deposited data

Results flagged for a closer look

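The Ets1 probe set 1426725_s_at was at least 2-fold from the wild-type Sertoli array in opposite directions at the knockout ages. Its log2 ratio was 1.08 at 10 weeks and -1.04 at 4 weeks. The difference between these ratios was not tested, with 1 array a group and a shared wild-type array.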

How the results depend on the processing

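No paired analysis was possible because each group had 1 array and no result came from a test. Of 84 counts of member probe sets recomputed under 7 alternatives, 74 stayed within 1.5 times the reported count. The 74 include reported counts of 0 that stayed 0, and every count that moved was above 0 as reported. Between the knockout ages the 3 higher probe sets became 1 when each gene was read by 1 probe set, as all 3 belong to Ets1. For the 10-week knockout over wild type, 2 higher became 1 with 1 probe set a gene and 1 without probe sets prone to cross-hybridisation. For the 4-week knockout over wild type, 2 lower became 1 under a floor at 0.4 of each array's trimmed mean, where Elk3 left the count, and 1 without probe sets prone to cross-hybridisation, where Ets1 did. For wild-type Sertoli over TM4 cells, 1 higher became 7 with the deposited values and 2 with centred ratios. There 8 lower became 3 with the deposited values, 5 with the floor at 0.4 and 2 with 1 probe set a gene. Of 555 single log2 ratios recomputed, 521 moved by less than the probe set spread of their pair and 34 moved by more, of which 21 came with the deposited scale. None that was past 2-fold changed sign. Values near the floor, as for Elk3 in Sertoli cells and most members in testis, are limited by signal over background.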
